A study of Mus musculus with 2 samples.

Results

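The genes described here are the Zfp zinc finger genes that lay at or near a region enriched for H3K27me3 in mouse rib chondrocytes. A gene was a member when its symbol consisted of Zfp, a number and at most 1 further letter, and when the authors' annotation joined it to an H3K27me3 peak, that is, when a peak lay within 5 kb of the gene record. This rule gave 69 genes, out of 394 protein-coding genes with such a symbol in the RefSeq gene table of GRCm38.p6 and out of 4985 gene symbols with a peak. Members were thus chosen by the ChIP enrichment itself, and their peaks are described without a test.

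Primary chondrocytes of wild-type genotype came from rib cartilage dissected from newborn mice of the CD1 stock, were released with collagenase and were grown for a night in medium with serum. DNA precipitated with an antibody to H3K27me3 (ChIP) was sequenced beside input DNA from chromatin that had not been precipitated, with 1 library of each. Both libraries were assigned by their titles, which the antibody tags contradict, as the tag of the input names H3K27me3 and that of the precipitated DNA names input. With n = 1 for each library, no spread between replicates exists for any value, and how many animals were pooled was not given in the sources used here.

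H3K27me3 is the trimethylated state of a lysine in the tail of histone H3. It is laid down by Polycomb repressive complex 2 and is known for domains over the silent starts of developmental genes. Most Zfp genes encode proteins with tandem zinc fingers of the cysteine-histidine type, and many of these proteins carry a KRAB domain that recruits the corepressor Trim28 and, through it, a different silencing mark on histone H3. Zfp genes multiplied by tandem duplication, so that many lie side by side in clusters, while others stand alone and act in the development of particular tissues.

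After filtering, 17237574 tags remained for ChIP and 17004082 for input, from which the authors called 19359 peaks. The weakest peak stood at a pileup of 9.86 ChIP fragments, and no region with a lower pileup was called. Expression was not measured in these libraries, so the cell type could only be checked against the mark. None of 8 cartilage genes (Col2a1, Acan, Sox9, Col9a1, Col11a1, Comp, Matn1 and Hapln1) had a peak within 5 kb, beside 20.7% of 21883 protein-coding genes, so the count says little about the cell type.

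Promoter windows show what kind of sequence the mark did and did not cover at Zfp genes. Each window reaches from 250 bases before an annotated RefSeq start on GRCm38.p6 to 50 bases after it. It reads 5′ to 3′ on the strand of the gene. For members, the window nearest the start of the deposited gene record was taken. It was within 1 kb of that start for 57 of the 62 members with a window. At Zfp536, whose deposited start was covered, it was 3889 bp away. CG dinucleotides, which read the same on both strands and cannot overlap each other, are in capitals. The windows of Zfp800, Zfp296, Zfp663 and Zfp541 are shown because they were the 4 member windows that lay wholly inside a peak. That of Zfp541 lay inside the longer record of the gene table, whose own start was not under a peak. Those of Zfp109 and Zfp94 are shown as clustered genes with the highest fold enrichment, whose peaks lay upstream of the deposited gene record. In the longer record of the gene table, the peak of Zfp109 lay within the gene.
Zfp800 (chr6:28397956-28398255, minus strand): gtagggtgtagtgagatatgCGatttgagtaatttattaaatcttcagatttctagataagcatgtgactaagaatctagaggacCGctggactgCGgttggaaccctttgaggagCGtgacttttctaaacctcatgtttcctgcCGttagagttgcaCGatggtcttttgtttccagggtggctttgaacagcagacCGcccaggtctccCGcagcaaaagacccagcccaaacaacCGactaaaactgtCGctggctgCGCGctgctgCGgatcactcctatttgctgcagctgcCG
Zfp296 (chr7:19577037-19577336, plus strand): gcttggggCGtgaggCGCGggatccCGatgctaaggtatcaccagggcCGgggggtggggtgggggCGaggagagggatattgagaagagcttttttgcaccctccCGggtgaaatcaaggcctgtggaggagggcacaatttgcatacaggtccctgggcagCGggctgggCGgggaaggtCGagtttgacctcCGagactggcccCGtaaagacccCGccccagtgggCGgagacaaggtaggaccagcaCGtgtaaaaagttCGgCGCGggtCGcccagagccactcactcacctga
Zfp663 (chr2:165368687-165368986, minus strand): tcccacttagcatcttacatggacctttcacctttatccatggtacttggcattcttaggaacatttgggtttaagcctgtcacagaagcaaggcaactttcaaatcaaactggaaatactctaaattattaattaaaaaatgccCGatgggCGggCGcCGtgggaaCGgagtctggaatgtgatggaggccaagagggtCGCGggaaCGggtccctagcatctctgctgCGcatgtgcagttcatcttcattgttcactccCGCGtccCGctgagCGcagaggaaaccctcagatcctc
Zfp541 (chr7:16071595-16071894, plus strand): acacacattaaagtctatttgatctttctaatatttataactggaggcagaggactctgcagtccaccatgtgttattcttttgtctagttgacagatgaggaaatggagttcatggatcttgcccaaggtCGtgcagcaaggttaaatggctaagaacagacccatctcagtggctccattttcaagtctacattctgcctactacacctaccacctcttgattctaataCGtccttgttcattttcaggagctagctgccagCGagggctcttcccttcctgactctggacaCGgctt
Zfp109 (chr7:24237549-24237848, minus strand): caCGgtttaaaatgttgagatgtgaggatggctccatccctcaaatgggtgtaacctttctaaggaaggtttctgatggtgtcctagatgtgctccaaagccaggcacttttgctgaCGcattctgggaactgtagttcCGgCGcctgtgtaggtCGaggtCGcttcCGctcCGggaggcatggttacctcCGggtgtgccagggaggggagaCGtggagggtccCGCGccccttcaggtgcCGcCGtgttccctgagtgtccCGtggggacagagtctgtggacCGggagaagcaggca
Zfp94 (chr7:24316617-24316916, minus strand): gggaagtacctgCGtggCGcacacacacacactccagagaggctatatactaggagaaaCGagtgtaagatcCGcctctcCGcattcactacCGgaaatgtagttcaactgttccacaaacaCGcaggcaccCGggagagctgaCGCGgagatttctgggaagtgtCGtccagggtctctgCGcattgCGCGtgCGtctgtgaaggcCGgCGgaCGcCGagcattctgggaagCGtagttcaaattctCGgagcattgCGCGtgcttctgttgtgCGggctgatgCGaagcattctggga

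Of 394 Zfp genes, 69 had a peak, which is 17.5% (95% Wilson interval 14.1% to 21.6%). The background was 20.7%, the share of 21883 protein-coding genes with a peak within 5 kb. A peak overlapped the gene record of 20 Zfp genes, or 5.08% (3.31% to 7.71%), against a background of 14.2%. It covered the gene start of 5, or 1.27% (0.543% to 2.94%), against 4.46%. Peaks that lay only upstream of the record were found for 38 Zfp genes, or 9.64% (7.11% to 13.0%), against 4.15%. A peak of 5 kb or more was joined to 15, or 3.81% (2.32% to 6.19%), against 6.05%. Peaks with a mean q-value no higher than 0.01 were joined to 22 Zfp genes, or 5.58% (3.72% to 8.31%), against 5.9%. These intervals cover counting error only, and neighbouring genes are not independent draws. The median length of a Zfp gene was 18.1 kb, beside 17.2 kb for all protein-coding genes.

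The 69 members were joined to 121 peaks. There was 1 peak at 49 members and 2 at 14. Zfp536, a repressor known from neuronal differentiation, had the most with 13 peaks, followed by Zfp644 with 11, Zfp800 with 10, Zfp641 with 6, Zfp663 with 5 and Zfp541 with 4. Single peaks were joined to both genes of a neighbouring couple in 5 cases, namely Zfp663 with Zfp334, Zfp882 with Zfp617, and Zfp26 with Zfp426, so these 6 genes do not count as independent. The mean q-value did not exceed 0.05 in 78 of the 121 peaks, and 17 members had no such peak. The other 52 were 75.4% of members (64.0% to 84.0%), near the 79.3% of all protein-coding genes with a peak.

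Members lay on 18 of the 20 chromosomes with Zfp genes. Chromosome 7, with 93 Zfp genes, had 11 members (11.8%), beside 17.8% of all its protein-coding genes, and chromosome 17 had 11 of 45 (24.4%), beside 23.9%. On chromosome 9, 7 of 20 Zfp genes were members (35%), whereas 20.4% of all protein-coding genes on that chromosome had a peak. Chromosome 13 was the other extreme among chromosomes with many Zfp genes, with 1 member of 37 (2.70%) beside 17.4% of its protein-coding genes.

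To describe clustering, Zfp genes at most 200 kb apart were chained, which gave 149 lone genes, 24 pairs and 29 clusters of 3 or more. Lone genes were members in 35 of 149 cases (23.5%, interval 17.4% to 30.9%). Genes in pairs were members in 8 of 48 (16.7%, 8.70% to 29.6%), and clustered genes in 26 of 197 (13.2%, 9.17% to 18.6%), beside 20.7% of all protein-coding genes. The intervals of lone and clustered genes overlapped between 17.4% and 18.6%. With peaks also placed by the gene table, the shares were 22.1% (16.2% to 29.5%) for lone and 16.8% (12.2% to 22.6%) for clustered genes. The share of pairs was then 18.8%, and lone and clustered genes were closer together. The 22 members with a mean q-value no higher than 0.01 were 13 lone genes, 5 genes of a pair and 4 clustered genes. With these peaks alone, the share was 8.72% of lone genes, 10.4% of genes in pairs and 2.03% of clustered genes, beside 5.9% of all protein-coding genes.

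**Figure D1:**
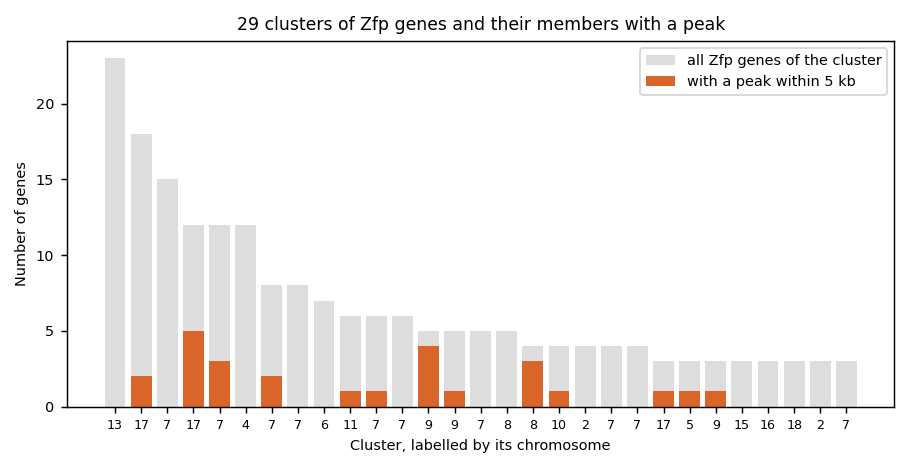
Number of Zfp genes in each of the 29 clusters (grey bars) and number with a peak within 5 kb in the deposited annotation (orange bars). The chromosome of each cluster is on the horizontal axis. The largest cluster, of 23 genes on chromosome 13, had none, whereas a cluster of 5 genes on chromosome 9 had 4.

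Clusters differed widely. The deposited annotation joined no gene to a peak in 16 clusters. Among them were the largest, with 23 genes on chromosome 13, and clusters of 15 genes on chromosome 7 and 12 genes on chromosome 4. By the positions of the gene table, however, Zfp978 in that chromosome 4 cluster was 2.74 kb from a peak. Zfp647, in another of the 16, was 4.17 kb away. The other 13 clusters held all 26 clustered members, and 6 of them held 19. On chromosome 17, the cluster at 32765496 to 33394637 had 5 members of 12 (Zfp101, Zfp563, Zfp763, Zfp955a and Zfp955b). The cluster on chromosome 9 at 20345136 to 20605404 had 4 of 5 (Zfp26, Zfp266, Zfp426 and Zfp846). On chromosome 7, the cluster at 24081877 to 24587840 had 3 of 12 (Zfp109, Zfp428 and Zfp94), and that on chromosome 8 at 71882068 to 71970333 had 3 of 4 (Zfp617, Zfp882 and Zfp961). Of the 24 pairs, Zfp286 with Zfp287 on chromosome 11 and Zfp334 with Zfp663 on chromosome 2 had peaks at both genes. Clustered genes can share near-identical sequence, and the copy that a read came from is then uncertain. The promoter windows of Zfp955a and Zfp955b, for example, were identical at 300 of 300 bases. Their peaks differed, with one of 13920 bp upstream of Zfp955a and one of 627 bp upstream of Zfp955b.

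**Figure D2:**
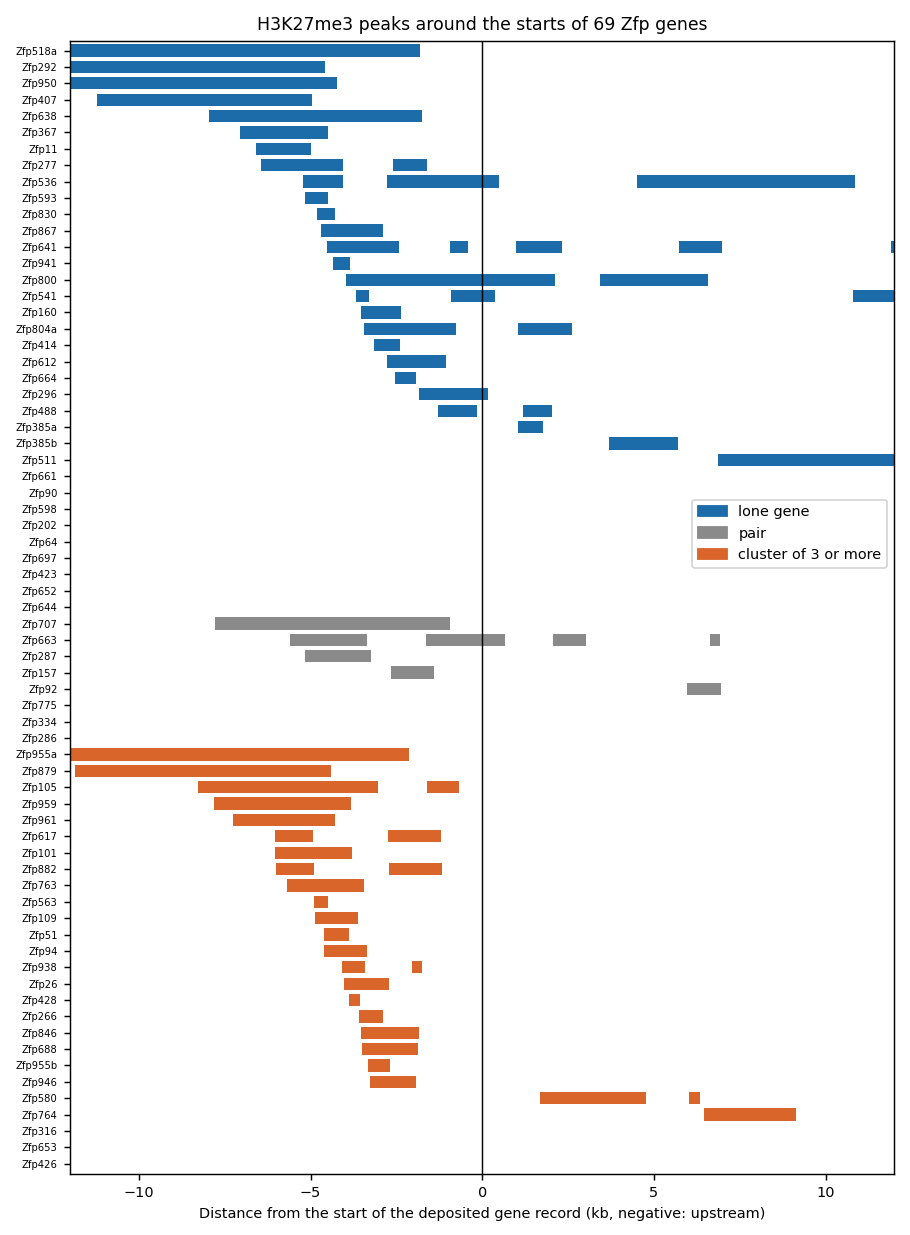
Peaks of the 69 members relative to the start of the deposited gene record, 1 line per gene, within 12 kb on either side (horizontal axis in kb, negative values upstream, colours for lone genes, pairs and clusters). Most peaks of clustered genes lie to the left of the start and none crosses it, while 4 lone genes and 1 gene of a pair have a peak across it. The 15 genes with an empty line have their peaks farther inside or downstream of the gene.

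Peaks of Zfp genes lay more often beside the gene than on it. All peaks lay upstream of the record for 38 of 69 members (55.1%, 43.4% to 66.2%), compared with 908 of 4534 protein-coding genes with a peak (20.03%, 18.9% to 21.2%). A peak overlapped the gene but not its start in 15 members (21.7%, 13.6% to 32.8%) and in 47.1% (45.6% to 48.5%) of all protein-coding genes with a peak. The start was covered in 5 members (7.25%, 3.13% to 15.9%) and in 21.5% (20.3% to 22.7%). Peaks lay only downstream for 10 members (14.5%, 8.07% to 24.7%), an interval that includes the 9.22% of all protein-coding genes with a peak, and Zfp941 had a peak on either flank, as had 2.16% of those genes. The median gene length was 22.8 kb for all protein-coding genes with a peak, 21.3 kb for lone members and 16.2 kb for clustered members. Among genes of 10 to 50 kb with a peak, peaks lay upstream only in 24.5% (22.6% to 26.6%) of 1748 protein-coding genes and in 55.1% (41.3% to 68.1%) of 49 Zfp genes.

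Among the 3 classes, upstream placement was most frequent in clusters. Peaks lay upstream only for 20 of 26 clustered members (76.9%, 57.9% to 89.0%), for 15 of 35 lone members (42.9%, 28.0% to 59.1%) and for 3 of 8 members of a pair (37.5%, 13.7% to 69.4%). The intervals of clustered and lone members overlapped by little. With peaks placed by the gene table, the shares were 66.7% (49.6% to 80.2%) in clusters and 42.4% (27.2% to 59.2%) in lone genes. Those intervals overlapped more widely. None of the 26 clustered members had its start covered, which allows a share of up to 12.9% by the same interval. In lone members, 43 of 81 combinations of a peak and a gene were inside the gene (53.1%), compared with 2 of 32 in clusters (6.25%) and 55.6% of 11088 combinations for all protein-coding genes. Of these 43, 33 belonged to the 5 lone genes with 4 or more peaks (Zfp536, Zfp644, Zfp800, Zfp641 and Zfp541). The inside peaks of Zfp644 and Zfp652 depended on their longer deposited records. In the gene table these genes were 12.7 and 56.0 kb from the nearest peak.

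Upstream peaks of members were mostly some distance from the gene. Over 52 combinations of an upstream peak and a member, the median distance from the start to the nearer edge was 3146.5 bp (interval of the median 2356 to 3617 bp), compared with 2024 bp (1912 to 2133 bp) over 2295 combinations for all protein-coding genes. Of the Zfp distances, 9.62% were below 1 kb, against 27.1%. Distances of 4 to 5 kb made up 26.9%, against 16.1%. In the chromosome 9 cluster, the peaks upstream of Zfp846, Zfp26 and Zfp266 began 1835, 2709 and 2883 bp from the start.

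**Figure D3:**
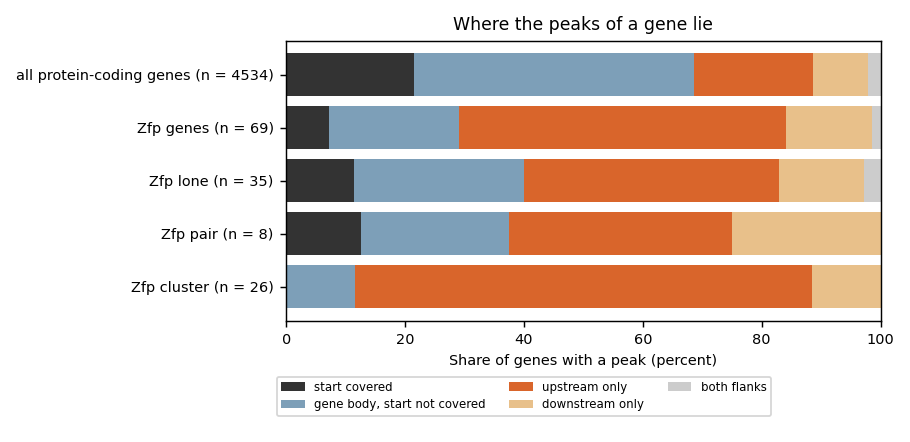
Share of genes with a peak (horizontal axis, percent) by the place of their peaks, for all 4534 protein-coding genes, all 69 Zfp genes, and lone, paired and clustered Zfp genes. Peaks upstream only make up 20.03% in the first bar and 76.9% in the bar for clustered Zfp genes, which has no part for a covered start.

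Widths were compared by the widest peak of each gene. The widest peak of a lone member had a median width of 2.098 kb (interval 1.61 to 4.83 kb), that of a gene in a pair 1.99 kb (0.988 to 6.85 kb), and that of a clustered member 1.56 kb (1.24 to 2.68 kb). The intervals overlapped. Over all members the median was 1.82 kb (1.33 to 2.31 kb), compared with 2.63 kb (2.55 to 2.71 kb) for all protein-coding genes with a peak. Widest peaks of 5 kb or more occurred in 11 of 35 lone members (31.4%, 18.6% to 48.0%) and in 3 of 26 clustered members (11.5%, 4.003% to 29.0%), beside 29.2% (27.9% to 30.5%) of all protein-coding genes with a peak.

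Enrichment had overlapping intervals in the 3 classes. The median pileup of the widest peak, in ChIP fragments, was 11.4 in lone members (11.1 to 12.1), 12.4 in pairs (10.4 to 13.4) and 11.3 in clusters (10.6 to 12). The median fold enrichment over input was 3.21 in lone members (3.10 to 3.39), 3.55 in pairs (2.998 to 3.79) and 3.21 in clusters (3.11 to 3.35), and it was 3.25 over all protein-coding genes with a peak. High values occurred in narrow and in broad peaks. The peak of Zfp109, 1245 bp wide and 3617 bp upstream of the deposited start, had a pileup of 15.81 and was enriched 4.43-fold, with a mean q-value of 0.000134. Its neighbour Zfp94 in the same cluster had a peak of 1240 bp with 3.804-fold enrichment, 3361 bp upstream. The next highest pileups were 14.03 at Zfp804a, a gene expressed in the brain, and 13.68 at Zfp511, whose peak was 19323 bp wide.

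Zfp800 was the single lone gene with a peak of at least 5 kb across its start. This peak was 6087 bp wide, reached from -3983 to 2103 bp relative to the start (negative values upstream), and had a pileup of 11.9 and 3.39-fold enrichment (mean q-value 0.0155). A second peak of 3150 bp followed at 3422 bp inside the gene, and the remaining 8 lay farther along the gene, the widest of them 4283 bp. The promoter window of Zfp800 lay within the broad peak and held 14 CG dinucleotides.

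The other 4 covered starts had shorter peaks. At Zfp536 a peak of 3265 bp crossed the start with 3.34-fold enrichment, and one of 6356 bp with 3.63-fold enrichment began 4499 bp inside the gene. Zfp296, known from pluripotent and germ cells, had 1 peak of 2002 bp with 3.23-fold enrichment, which reached 160 bp past the start. At Zfp541, a gene of male meiosis, the peak across the start was 1263 bp wide with 3.06-fold enrichment, and a peak of 6680 bp lay inside the gene. Zfp663 was the one member of a pair, with a peak of 2308 bp and 3.66-fold enrichment that was also joined to Zfp334 as a downstream peak. Further peaks of 2254 bp, at the end of Zfp334, and of 1105 bp, downstream of Zfp663, lay on the same stretch of chromosome 2.

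Other lone members had peaks inside the gene or its neighbours. Zfp385b, of a family that interacts with p53, had 2 peaks inside the gene, and the one of 2008 bp, 3688 bp after the start, was enriched 3.86-fold with a pileup of 13.32. Zfp652 had peaks of 2687 and 1908 bp near the end of its deposited record, with 3.14-fold and 3.85-fold enrichment, and in the gene table these overlapped Abi3 and, for the wider one, Phospho1. Zfp697 had 1 peak of 1113 bp inside the gene, enriched 3.73-fold. Zfp804a had a peak of 2683 bp that ended 761 bp upstream of the deposited start and another of 1571 bp that began 1050 bp after it, so the start lay between both. In these 4 genes the deposited start was not covered, but the start of Zfp804a in the gene table, which lies farther upstream, was under the peak of 2683 bp. In the gene table, the shorter record of Zfp652 was 56.0 kb from its nearest peak.

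Fold enrichment was also read gene by gene in the other clusters with most members. On chromosome 17, the single peaks of Zfp101, Zfp563, Zfp763, Zfp955a and Zfp955b were enriched 3.24-fold, 3.20-fold, 2.97-fold, 3.42-fold and 2.99-fold, all upstream. In the chromosome 9 cluster, Zfp26 and Zfp426 shared a peak of 1317 bp with 2.98-fold enrichment, which was upstream of the first and downstream of the second, and Zfp266 and Zfp846 stood at 3.05-fold and 3.14-fold. On chromosome 8, Zfp617 and Zfp882, whose deposited records overlap, shared both of their peaks, the wider of 1555 bp with 3.35-fold enrichment, and these lay upstream of both genes. Zfp961 had a peak of 2973 bp upstream with 3.15-fold enrichment. Its other peak, of 2107 bp with 3.14-fold enrichment, lay inside its deposited record and overlapped Cyp4f18 in the gene table. The mean q-value exceeded 0.05 at Zfp26, Zfp266, Zfp426, Zfp763 and Zfp955b among these genes.

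The clustered genes with short peaks, 23 in number with every peak below 5 kb, were the counterpart. Their widest peaks ranged from 0.337 kb at Zfp428 to 4.01 kb at Zfp959, with a median of 1.33 kb. In 18 of them there was 1 peak, and in 17 all peaks lay upstream. After Zfp959 the widest were at Zfp580 (3.10 kb), Zfp961 (2.97 kb), Zfp653 (2.81 kb), Zfp764 (2.68 kb), Zfp763 (2.23 kb), Zfp101 (2.23 kb) and Zfp846 (1.69 kb). Fold enrichment was highest at Zfp109, followed by Zfp94, Zfp653 (3.70-fold) and Zfp580 (3.42-fold). Zfp800 was enriched 3.39-fold beside a median of 3.15-fold in these genes, and pileup was 11.9 beside a median of 11.3 (range 9.98 to 15.8). Gene length differed, with 187 kb for Zfp800 and a median of 16.5 kb (4.28 to 32.5 kb) for the clustered genes. A contrast of broad peaks at lone starts with short peaks in clusters thus rested on 1 gene on its first side. With broad counted from 3 kb there were 2 such lone genes, Zfp536 and Zfp800, and with peaks of a mean q-value no higher than 0.01 there were 0.

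**Figure D4:**
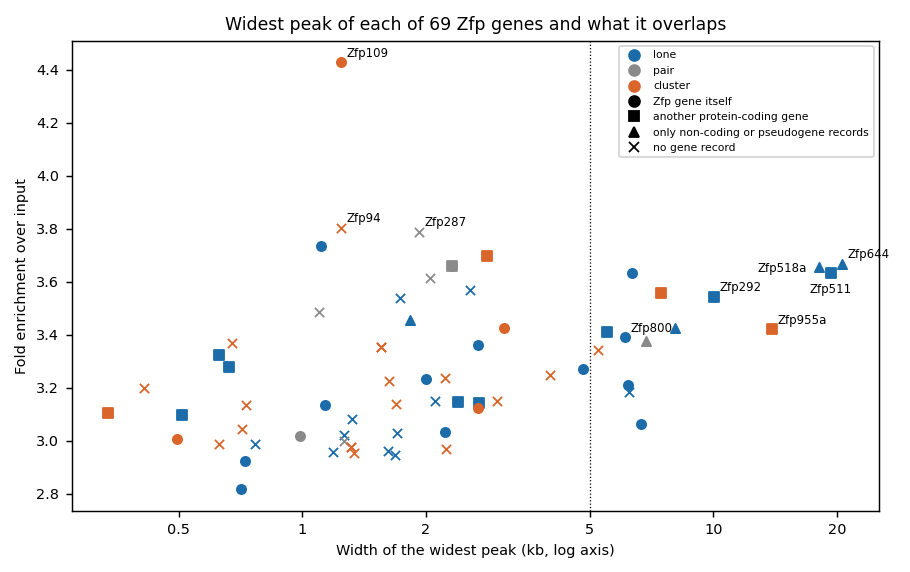
Width of the widest peak of each member (horizontal log axis, kb) against its fold enrichment over input (vertical axis), with colours for lone, paired and clustered genes and symbols for what the peak overlaps in the gene table. The dotted line marks 5 kb. Zfp109 is highest at 4.43-fold with a narrow peak, and most points to the right of the line are not circles, that is, not peaks over the Zfp gene itself.

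Most of the broad peaks near Zfp genes lay off the Zfp gene itself. Of the 15 members with a peak of 5 kb or more, 11 had the widest one off their own deposited record (73.3%, 48.05% to 89.1%), compared with 384 of 1324 protein-coding genes with such a peak (29.0%, 26.6% to 31.5%). The exceptions were Zfp536, Zfp541, Zfp644 and Zfp800. By the gene table, the widest peak overlapped the Zfp gene itself in 4 of the 15 (Zfp541, Zfp536, Zfp800 and Zfp638), another protein-coding gene in 5, only non-coding or pseudogene records in 4, and no record in 2. Of the 1324 genes, 72.3% lay under their own widest peak. The peak of 19323 bp downstream of Zfp511 covered the start of Msx3, a homeobox gene of the neural tube. That of 10061 bp upstream of Zfp292 covered Cga, which encodes the common subunit of pituitary glycoprotein hormones. Upstream of Zfp955a, a peak of 13920 bp covered the olfactory receptor gene Olfr63, and upstream of Zfp879, one of 7441 bp overlapped Grm6, a glutamate receptor of the retina. Near Zfp598, the peak of 5511 bp overlapped Syngr3, a synaptic vesicle gene.

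The widest peaks off the start among lone genes were those of Zfp644, Zfp511 and Zfp518a. The peak of 20599 bp was joined to Zfp644 because the deposited record spans 106500895 to 106697287 on chromosome 5, but in the gene table only the record Gm8350 lay under it, and Zfp644 was 12.7 kb from the nearest peak. The peak of 18093 bp ended 1827 bp upstream of Zfp518a and overlapped the non-coding gene E030044B06Rik. Among clustered members, Zfp955a, Zfp879 and Zfp105 had a peak of at least 5 kb, all upstream of the start, and under the peak of 5233 bp at Zfp105 there was no gene record.

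Over all 69 members, the widest peak overlapped the Zfp gene itself in 18 (26.1%, 17.2% to 37.5%), another protein-coding gene in 13 (18.8%), non-coding or pseudogene records only in 5 (7.25%) and no record in 33 (47.8%, 36.5% to 59.4%). Over all protein-coding genes with a peak, the same shares were 58.1% for the gene itself, 12.5% for another protein-coding gene, 5.93% for non-coding or pseudogene records only and 23.5% for no record. In clusters no record lay under 18 of 26 widest peaks (69.2%, 50.01% to 83.5%), compared with 11 of 35 in lone members (31.4%, 18.6% to 48.0%). Annotation moved some genes between these groups. For Zfp109 and Zfp638, the widest peak was upstream of the deposited record but within the longer record of the gene table. For Zfp804a and Zfp488, it was upstream of the deposited record but crossed the start of the gene table. The start of Zfp541 in the gene table was not under a peak, so that 6 starts were covered by those positions. For 13 members the starts in both sources were more than 1 kb apart.

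The CG content of promoters was compared between Zfp genes with and without a peak, using the most upstream window of each gene. The ratio of observed to expected CG dinucleotides in the window had a median of 0.685 in 31 lone members and 0.730 in 87 lone genes without a peak, with intervals of 0.617 to 0.836 and 0.640 to 0.818. In pairs it was 0.658 in 6 members (0.487 to 0.750) and 0.455 in 31 others (0.334 to 0.696). In clusters it was 0.638 in 25 members (0.5 to 0.797) and 0.563 in 149 others (0.492 to 0.617). The intervals with and without a peak overlapped in each class. The 4 windows inside a peak ranged from 0.270 at Zfp541, with 4 CG, to 0.758 at Zfp800. Zfp94, whose window lay outside any peak, stood at 1.05 with 25 CG, and Zfp109 at 0.638 with 16. At least 1 CG was present in 328 of 329 Zfp windows and in 94.8% of the windows of all protein-coding genes. Windows were at hand for 62 of the 69 members and 83.5% of all Zfp genes, but for 79.9% of protein-coding genes, so ratios were not compared with those of all protein-coding genes.

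**Figure D5:**
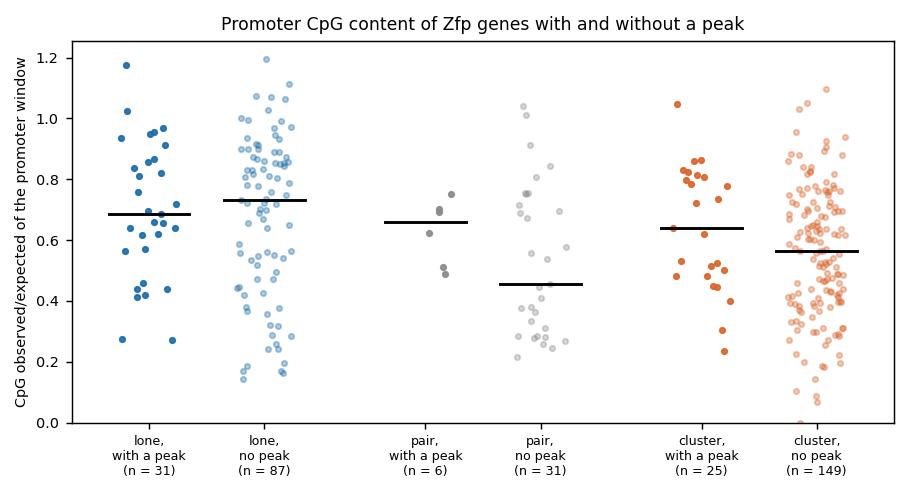
Observed over expected CG dinucleotides in the promoter window (vertical axis) of lone, paired and clustered Zfp genes with and without a peak within 5 kb, 1 point per gene and a bar at the median. The points of genes with a peak spread over the range of those without, with medians of 0.685 and 0.730 for lone genes and 0.638 and 0.563 for clustered genes.

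Peaks were also counted in related families, beside the background of 20.7%. A peak was joined to 1 of 16 Zscan genes, 1 of 11 Zkscan genes, 6 of 40 Zbtb genes and 2 of 17 Klf genes, and it covered a start in 1 Zbtb gene. Among 12 genes for corepressors and silencing factors that work with KRAB zinc finger proteins, Cbx1, which encodes a heterochromatin protein, had a peak. Trim28, Setdb1, Atf7ip, Morc2a, Tasor, Mphosph8, Pphln1, Cbx3, Cbx5, Dnmt1 and Uhrf1 had none within 5 kb.

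Members close to the limits show what the rule left out. The peaks of Zfp11 and Zfp407 lay 4979 and 4965 bp from the start, just inside 5 kb, whereas by the gene table Zfp54 and Zfp512 were 5.03 and 5.23 kb from the nearest peak. At the limit of 5 kb on width, Zfp105 had a peak of 5233 bp and Zfp423, a factor of adipocyte and neural development, one of 4829 bp.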

How the data were processed

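ChIP and input DNA were each sequenced as 1 library. The submitters' processing notes name CASAVA 1.8.4, Bowtie2, MACS2 and mm10, and per the file headers MACS 2.1.0.20140616 called broad peaks of ChIP over input with tags of 100 bp, a fragment length of 294 bp and a q-value cutoff of 0.05. The mean q-value of a listed peak reached 0.0991, so not every peak had a mean below that cutoff. The authors deposited, per peak, a pileup (coverage signal), a fold enrichment ratio over input and mean p-values and q-values as −log10 values, and a second table that joins peaks to Ensembl gene records within 5 kb. All 19359 peaks had equal values in both tables. Depth was 17574613 ChIP tags and 17369199 input tags before filtering.

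Split symbols were looked up in RefSeq genes on GRCm38.p6, and all 69 members were found. The deposited record decided the place of a peak, and the gene table decided clustering, gene length and what lay under a peak. Each gene was described by its widest peak. Shares have 95% Wilson intervals and medians have 95% binomial intervals for n of at least 6, both for counting error only. No p-value was computed, as there was 1 library per group. Members, lists and thresholds were chosen with earlier results of these data known. The genes named are Zfp800 as the lone gene with a broad peak at its start, the clustered genes with short peaks that were widest (8) or most enriched (4), the lone genes with the widest peaks off the start (3), the members of highest pileup (3), all members of the 4 clusters with most of them, and those next to the limits. Genes named for many peaks, covered starts, broad peaks or low q-values were added after their values were seen. Functions were tested on simulated data. Counts of zinc fingers and of KRAB and SCAN domains were planned but not made, since no protein sequences were used here. The deposited p-values were not used. Python 3.11.15, pandas 2.3.3, scipy 1.17.1 and statsmodels 0.14.6 were used.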

Additional observations from a re-analysis of the deposited data

How the results depend on the processing

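No paired analysis was possible because there was 1 library per group. The counts and the values by class, 23 results, were recomputed under the alternatives. Of 175 values, 135 stayed within 1.5 times the count or within the interval of the share or median, and 40 moved. Distances, shares by chromosome, shares of broad peaks by class, CG ratios with and without a peak and the corepressor count were not recomputed. Lone genes had the higher share with a peak and the wider peaks, and clustered genes the higher share with upstream peaks only, in 8 of 8 settings each. These settings reuse the same peaks and are not independent. Only 4 clustered genes had a peak at a mean q-value up to 0.01 or a fold from 3.5. With overlap required there were 3, and the median widths were 2.110 kb (lone) and 2.107 kb (cluster). Keeping peaks with a mean q-value up to 0.05 left 6 genes of the other zinc finger families in place of 10, a clustered share of 9.14% and 15 clustered genes with short peaks. A limit of 0.01 and, separately, a fold enrichment from 3.5 upwards left, in this order, 22 and 20 Zfp genes with a peak, 1 and 1 with a covered start, 2 and 2 genes of the other families, lone shares of 8.72% and 8.05%, a clustered share of 2.03% in both, upstream placement in 40.9% and 40.0% of members, and 0 and 0 lone genes with a broad peak at the start. They left 3 clustered genes with short peaks, whose median CG ratio was 0.864, and raised the medians to pileups of 13.03 and 13.025 and folds of 3.63 and 3.63 in lone genes, and to 13.325 and 3.75 in clustered genes in both. The share of pairs was 8.33% at a fold of 3.5. Requiring overlap with the deposited record left 20 Zfp genes, 3 genes of the other families, 3 clustered genes with short peaks, shares of 9.40% (lone), 6.25% (pair) and 1.52% (cluster) and a clustered pileup of 10.55. It raised the share of widest peaks over the Zfp gene itself to 85%, by construction, and could give no upstream share. Counting peaks as broad from 3 kb gave 2 lone genes at the start, with Zfp536 added, and from 10 kb gave 0. Chaining at 100 or 500 kb, chaining related symbols, positions from the gene table and a restriction to genes of 10 to 50 kb, the last chosen after seeing the data, moved no value beyond these limits. The limits are wide for the 8 members in pairs, where chaining at 500 kb changed the share with a peak to 10.0% and that with upstream peaks only to 66.7%, above the 37.5% of lone genes. No peak had a pileup below 9.86, and no alternative varied the depth.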

Other observations

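By the positions of the gene table, 10 further Zfp genes lay within 5 kb of a peak although the deposited annotation did not join them to one. Peaks overlapped Zfp853 and Zfp445, Zfp660 was 0.64 kb away, and Zfp978, Zfp108, Zfp267, Zfp72, Zfp709, Zfp647 and Zfp119a were 2.74 to 4.90 kb away. Of these 10, 8 belonged to clusters. By the same positions, 4 members lay farther than 5 kb from any peak, namely Zfp652 (56.0 kb), Zfp644 (12.7 kb), Zfp617 (6.42 kb) and Zfp407 (5.15 kb), which leaves 75 Zfp genes in place of 69. For Zfp genes not joined to a peak, the median distance to the nearest one was 152 kb in lone genes, 211 kb in pairs and 160 kb in clusters. The smallest distances were 3.43, 4.11 and 0 kb, in this order. No such distance is given for other protein-coding genes.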
